A study of Anopheles stephensi with 4 samples.

Results

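The ovary and the Malpighian tubules of adult female Anopheles stephensi, a mosquito vector of malaria, were compared as whole tissues. They are 2 of the 4 samples of the series, chosen by the tissue that each label names; the others are fat body and midgut. Both tissues came from sugar-fed females kept in the laboratory, and no other treatment, strain, age or number of animals was given in the labels. Each tissue had 1 paired-end library, run on 2 sequencing lanes as technical replicates. Differences therefore compare these 2 libraries, have no replicate check and carry no p-value.

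The mosquito ovary is made of follicles, each with an oocyte, the nurse cells that supply it with RNA and protein, and a layer of follicle cells. In many mosquitoes the follicles of a female that has not fed on blood rest before yolk uptake, and yolk is taken up after a blood meal. The Malpighian tubules are the excretory organs. Their principal cells drive fluid secretion with a proton pump, the V-ATPase, and with cation transporters, and their stellate cells carry chloride and water. The tubules are also known for the handling of foreign chemicals and of nitrogen waste.

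The identifiers of the reference genes could not be paired with names. A table of 15394 named genes contained 0 of them, so no marker of either tissue could be looked up and the labels could not be checked against defining genes. Genes are given by position, level and structure, with at most 2 identifiers in each direction. Coordinates are 1-based, on the scaffolds of the deposited transcript annotation, and the sources used here do not name the genome build. In bulk tissue, fewer cells of a type and less RNA per cell cannot be told apart.

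The libraries were of similar depth, with an estimated 34830892 fragments in ovary and 36316831 in tubules. Levels are the authors' FPKM, the fragments of a transcript per kilobase of its length, with the authors' own scaling of each library. In their scaled counts, 1 estimated fragment stood for 0.329 in ovary and 0.431 in tubules. At such similar depth, that scaling was not for depth alone. A gene level is the sum over the transcripts that match, share a junction with, or overlap the exons of the annotated transcript. Over reference genes, intergenic loci and repeat loci, the deposited FPKM summed to 443829 in ovary and 580157 in tubules, so comparisons of level were repeated with both columns scaled to equal sums. That scaling raised ovary relative to tubules by 0.39 on the log2 scale. It raised the values of both columns as well, so that 1 unit stood for 0.444 FPKM in ovary and 0.580 FPKM in tubules, and an added 1 or a threshold weighed less. The main counts were therefore also taken with equal sums at an unchanged overall level, chosen after seeing the data, where 1 unit stood for 0.875 FPKM in ovary and 1.14 FPKM in tubules. The median log2 ratio of ovary to tubules over all tested genes was 0.15 with deposited FPKM, 0.53 with equal sums and 0.49 with equal sums at an unchanged level.

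Most genes were present in both tissues. At 1 FPKM or more, 7746 of 12337 reference genes were found in ovary and 7791 in tubules, and 7156 of these were found in both. A further 590 reached 1 FPKM in ovary and not in tubules, and 635 in tubules and not in ovary. The comparison covered 8294 genes with at least 1 FPKM and 20 estimated fragments in either tissue. Of these, 6577 differed by less than 4-fold in FPKM + 1, a scale that understates the difference of low genes.

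A smaller set of genes was 4-fold or more higher in ovary, with modest folds, and a larger set was higher in tubules, with a long upper range. Ovary was 4-fold or more higher for 674 genes, 8.13% of those tested, and tubules for 1043 genes, 12.6%. The median fold was 5.61 in the ovary set and 8.09 in the tubule set. The authors' FPKM bounds, summed by gene, did not overlap between the tissues for 658 of the ovary genes (97.6%) and 1029 of the tubule genes (98.7%). The sets were picked by the ratio of the same values, so these shares are no separate check of them. At the threshold, the last gene counted for ovary stood at 12.3 FPKM in ovary and 2.31 FPKM in tubules. The first one not counted stood at 9.89 and 1.72 FPKM. For tubules, the last gene counted had 38.4 FPKM in ovary and 156 FPKM in tubules, and the first not counted had 0.0874 and 3.34 FPKM.

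**Figure D1:**
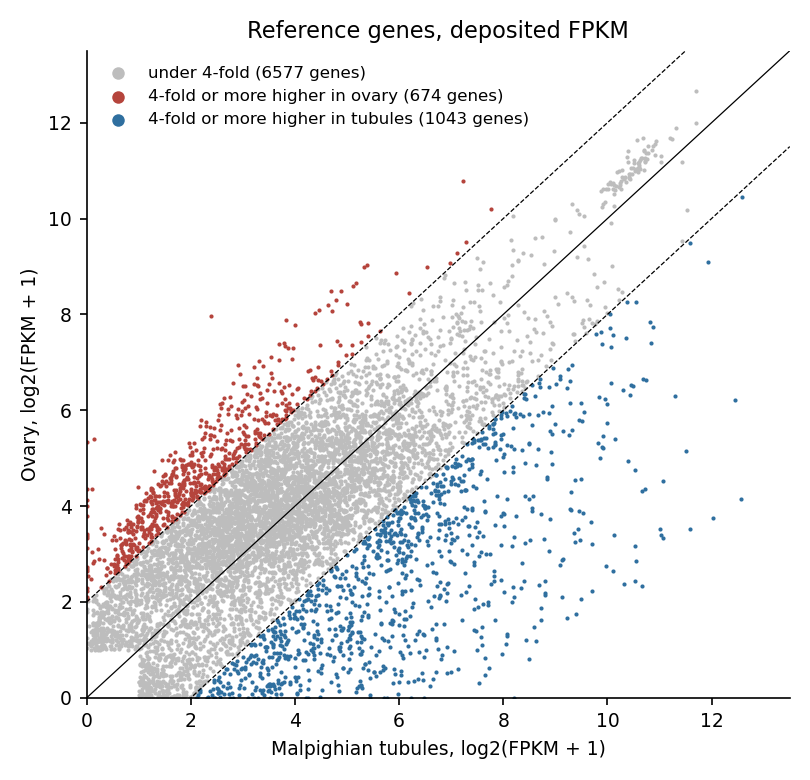
Level of each of the 8294 tested reference genes in Malpighian tubules (x axis) and ovary (y axis), both as log2(FPKM + 1) of the deposited values; each point is 1 gene, the solid line marks equal levels and the dashed lines a 4-fold difference. The 674 genes above the upper line lie close to it, while the 1043 genes below the lower line spread far from it.

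Which tissue had the larger set depended on the scaling. With equal sums, ovary was 4-fold or more higher for 1333 genes (16.1%) and tubules for 928 genes (11.2%). At an unchanged overall level these counts were 1066 (12.9%) and 816 (9.84%), so the order turned there too, while the ovary count rose less. The share of the 4-fold genes that were higher in ovary was 39.3% with deposited FPKM, 59.0% with equal sums and 56.6% with equal sums at an unchanged level. All 674 ovary genes of the deposited comparison were in the equal-sum set, and they made up 50.6% of it. Of the tubule genes, 875 were counted under both scalings, 83.9% of the deposited set and 94.3% of the equal-sum set. A further 53 tubule genes were counted with equal sums only, where the added 1 weighed less.

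The tubule set had the longer upper range under each scaling. A fold of 16 or more was reached by 9 genes higher in ovary and 276 higher in tubules, with equal sums by 39 and 274, and at an unchanged level by 20 and 230. At 64-fold there were 0 genes for ovary and 70 for tubules, with equal sums 3 and 72, and at an unchanged level 0 and 48.

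**Figure D2:**
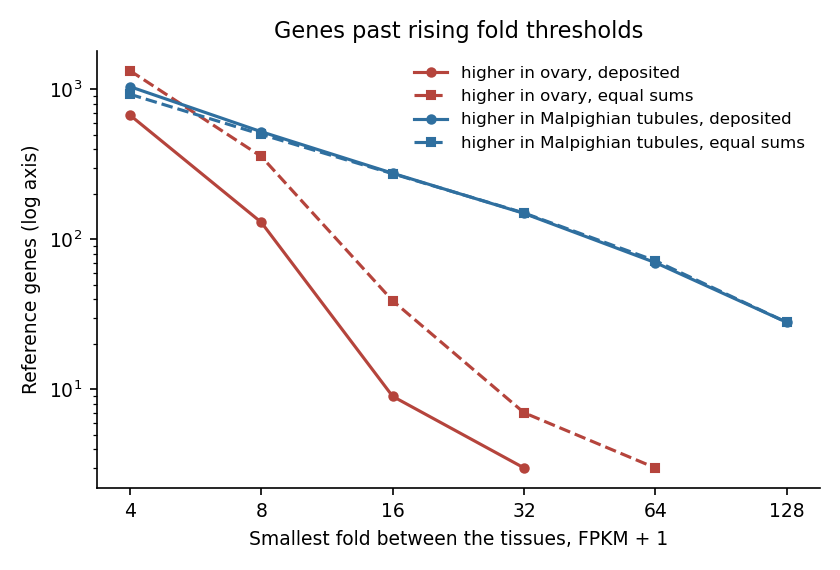
Number of reference genes (y axis, log scale) whose FPKM + 1 is higher in one tissue by at least the fold on the x axis, for deposited FPKM (solid lines, circles) and for columns scaled to equal sums (dashed lines, squares); points at 0 genes are not drawn. The ovary counts fall from 674 at 4-fold to 9 at 16-fold with deposited values, and the tubule counts from 1043 to 276.

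The tubule set held more of the abundant genes. Its median level in tubules was 62.7 FPKM, with quartiles of 21.4 and 169 FPKM, and 385 of the genes reached 100 FPKM there. The ovary set had a median of 22.0 FPKM in ovary, with quartiles of 12.8 and 45.1 FPKM, and 60 of its genes reached 100 FPKM. The genes of the ovary set took 12.9% of the ovary fragments in reference genes (95% Wilson interval 12.87 to 12.90) and 1.45% of the tubule fragments (1.44 to 1.45). Those of the tubule set took 38.7% of the tubule fragments (38.70 to 38.74) and 4.41% of the ovary fragments (4.41 to 4.42). These intervals cover counting error only, over fragments that are themselves estimates. Each set was chosen by its fold between these same libraries, so a larger share in its own tissue was largely fixed beforehand.

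Sorted by level, the excess of tubule genes with deposited FPKM lay mostly among the abundant genes. Of the 867 genes with 100 to 1000 FPKM in the higher tissue, 58 (6.69%) were 4-fold higher in ovary and 340 (39.2%) in tubules. With equal sums these numbers were 86 (9.92%) and 271 (31.3%), and at an unchanged level 85 and 269, so the order held. Of the 142 genes over 1000 FPKM, 2 were 4-fold higher in ovary and 45 in tubules. Between 10 and 100 FPKM, where 4750 genes lay, 505 were higher in ovary and 557 in tubules, with equal sums 854 and 466, and at an unchanged level 775 and 434. The order in that class therefore turned with the scaling. Among the 2535 genes with 1 to 10 FPKM, 109 were higher in ovary and 101 in tubules. These numbers were 390 and 152 with equal sums, and 203 and 74 at an unchanged level.

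The most abundant genes of ovary were also abundant in tubules. The 100 highest genes of the tissues had 66 members in common. Of the 100 highest in ovary, 3 were 4-fold higher there than in tubules, while 34 of the 100 highest in tubules were 4-fold higher there. The 100 highest genes took 24.9% of the ovary fragments in reference genes and 19.7% of those in tubules.

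By the rule for named genes, the genes with the largest ratio in ovary, among those without an opposite-strand or intronic transcript, were ASTEI09641 and ASTEI09146. ASTEI09641 (scaffold_00099, 227798 to 228398, plus strand, 2 exons, 366 bases) stood at 248 FPKM in ovary, with authors' bounds of 218 to 278, and at 4.21 FPKM in tubules, with bounds of 0 to 13.8. Its fold was 47.8, and 67.8 with equal sums. Its level was 5.36 FPKM in midgut and 7.73 FPKM in fat body. ASTEI09146 (scaffold_00084, 58968 to 67619, plus strand, 2 exons, 205 bases) stood at 39.2 FPKM in ovary, from 113 estimated fragments and with bounds of 0.931 to 77.5, and was listed at 0 in tubules, with an upper bound of 2.19 FPKM. The bounds of ASTEI09146 overlapped between the tissues. Both genes lay in an assembled gene that also held another reference gene, so their fragments could have been divided between neighbours.

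Among tubule genes without such a transcript, ASTEI06725 and ASTEI03825 had the largest ratios, and both stood alone in their assembled gene. The largest fold of the whole tubule set was 342, in a gene that does have such a transcript. ASTEI06725 (scaffold_00043, 1168906 to 1169768, plus strand, 2 exons) stood at 1617 FPKM in tubules (1581 to 1652) and 4.05 FPKM in ovary (2.65 to 5.45). Its fold was 320, and 275 with equal sums. In midgut it had 61.7 FPKM and in fat body 31.0 FPKM. ASTEI03825 (scaffold_00017, 2079964 to 2081569, minus strand, 2 exons) stood at 4177 FPKM in tubules (4088 to 4266) and 12.5 FPKM in ovary (8.95 to 15.98), a fold of 310, and 248 with equal sums. Its level was 204 FPKM in midgut and 86.9 FPKM in fat body. In deposited FPKM, ovary was the lowest of the 4 tissues for ASTEI06725 and ASTEI03825.

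Few genes were on in one tissue and off in the other. On was set at 1 FPKM with 20 estimated fragments, and off at under 0.1 FPKM. By this rule 51 genes were on in ovary only, 0.665% of the 7674 genes on in ovary. In tubules 108 genes were on only there, 1.4% of 7697. With equal sums there were 50 (0.616%) and 77 (0.955%), but the limits moved with that scaling, to 0.444 and 0.580 FPKM for on and to 0.0444 and 0.0580 FPKM for off in ovary and tubules. At an unchanged overall level there were 62 and 92. Most of these genes were low, with a median of 2.62 FPKM in the ovary set and 2.63 FPKM in the tubule set. The ovary set reached 39.2 FPKM at most and had 6 genes at 10 FPKM or more, and the tubule set reached 296 FPKM and had 19 such genes. In the other tissue, 20 of the 51 and 33 of the 108 genes were listed at 0.

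The genes on in ovary only often had a neighbour in the same assembled gene. Of the 51 genes, 30 (58.8%) lay in an assembled gene that held another reference gene, against 27 of the 108 tubule genes and 13.3% of all tested genes. Among genes alone in their assembled gene, a restriction chosen after seeing the data, 21 were on in ovary only and 81 in tubules only.

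The genes higher in ovary had longer transcripts than those higher in tubules. The main transcript of a gene, its most abundant one, had a median length of 2053 bases in the ovary set, with quartiles of 1070 and 3554 bases. In the tubule set the median was 1635 bases, with quartiles of 935 and 2960 bases, and over all tested genes it was 1826 bases. With equal sums the medians were 2022 and 1635 bases. The order was the same where the main transcript was an assembled one (3562 and 2751 bases) and where it was the annotated one (1389 and 1101 bases). Of the annotated transcripts 88.8% had a length that was a multiple of 3, against 33.1% of the assembled ones that share a junction, so annotated lengths were mostly coding lengths. The annotated transcripts had a median of 1559 bases in the ovary set and 1307 bases in the tubule set.

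The exon counts went the other way. The median number of exons was 3 in the ovary set and 4 in the tubule set. Single-exon genes made up 11.4% of the ovary set and 8.53% of the tubule set, beside 10.01% of all tested genes. Genes with 10 or more exons made up 7.12% and 9.01%, beside 7.26%.

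The ratio between the tissues also moved with length over all tested genes. The median log2 ratio of ovary to tubules was 0.05 for genes with annotated transcripts under 500 bases, -0.08 from 500 to 1000 bases, 0.11 from 1000 to 2000, 0.35 from 2000 to 4000, and 0.52 at 4000 bases or more. From 500 bases on it increased from class to class. With equal sums the lowest and highest of these medians were 0.29 and 0.91, in the same classes. With deposited FPKM, the share of genes 4-fold higher in tubules was 14.0% under 500 bases and 8.17% at 4000 bases or more. The share 4-fold higher in ovary then had no steady trend, at 7.70%, 6.82%, 7.95%, 9.93% and 8.30% from the shortest class to the longest. With equal sums it was 16.4%, 13.7%, 15.3%, 18.5% and 19.1%, an increase from class to class from 500 bases on.

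**Figure D3:**
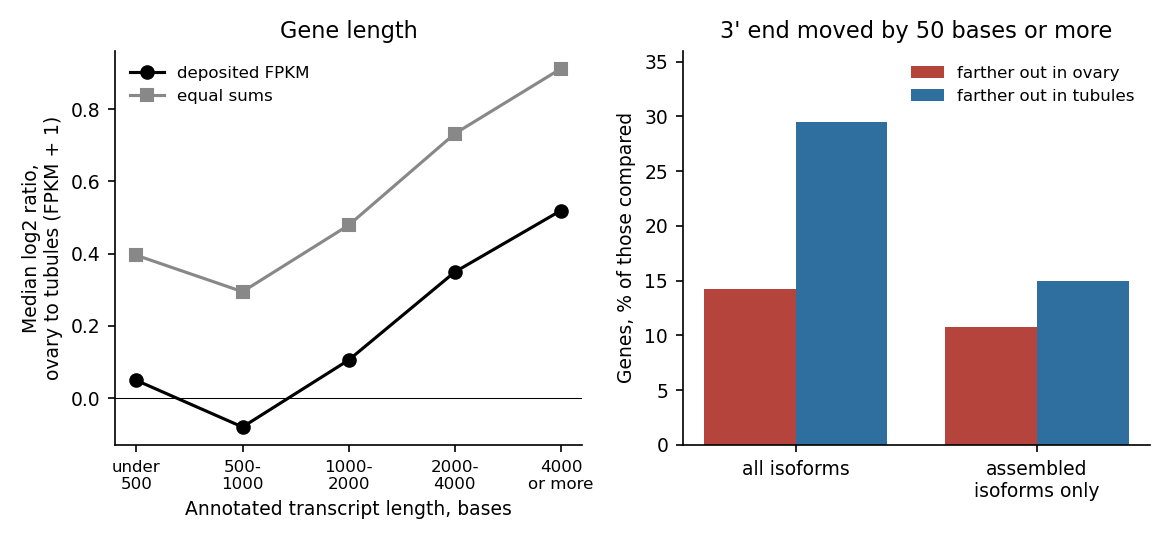
Left, median log2 ratio of ovary to tubules in FPKM + 1 (y axis) by length of the annotated transcript in bases (x axis), with deposited FPKM (black circles) and equal sums (grey squares). Right, share of compared genes whose weighted 3' end lay at least 50 bases farther out in ovary (red) or in tubules (blue), with all isoforms (14.2% and 29.5%) and with assembled isoforms only (10.8% and 15.0%).

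Genes of a set were neighbours on the scaffold more often than tested genes in all. Among 6091 adjacent pairs of tested genes, the next gene was also 4-fold higher in ovary for 62 of 501 ovary genes (12.4%), against 8.09% over all pairs. For tubules it was also higher for 151 of 710 genes (21.3%), against 12.2%. With equal sums the shares were 21.5% against 15.8% for ovary, and 21.1% against 10.6% for tubules. Of these pairs, 51 of the 62 in ovary and 131 of the 151 in tubules lay in separate assembled genes. The neighbours lay on the same strand in 48.4% of the ovary pairs and 46.4% of the tubule pairs, beside 37.4% of all adjacent pairs. These strand shares include the pairs that share an assembled gene. Strand was not compared for the separate pairs alone, so an excess of same-strand pairs among them is not shown. Whether neighbours are near-identical copies that share reads was not tested.

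Runs of at least 3 adjacent genes of 1 set numbered 4 for ovary, with 12 genes, and 26 for tubules, with 84 genes. This order turned with the scaling: with equal sums there were 34 runs for ovary and 22 for tubules, and at an unchanged level 16 for each. With deposited FPKM the longest run held 5 genes higher in tubules (scaffold_00054, 1129866 to 1157007), in 5 separate assembled genes on both strands. With equal sums its second member had a fold of 3.83, under the limit, and the run was broken. Its members stood at 10.8, 20.6, 28.3, 227 and 23.4 FPKM in tubules and at 1.71, 3.79, 4.66, 11.2 and 0.894 FPKM in ovary. The run with the largest median fold, 273, held 3 genes (scaffold_00043, 1146248 to 1176439). It includes ASTEI06725 and, beside it on the same strand, a gene of 1479 FPKM in tubules and 4.42 FPKM in ovary. The third member had 8.09 FPKM in tubules and 0.0499 FPKM in ovary. In ovary, the run with the largest median fold held 3 genes (scaffold_00004, 639242 to 652075) at 89.7, 59.6 and 166 FPKM in ovary and 7.27, 5.59 and 11.9 FPKM in tubules. The second and the third of these share an assembled gene.

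Genes abundant in ovary rarely fell to very low levels in the tubule library, whereas genes abundant in tubules often did so in ovary. Of 3114 genes with at least 2000 estimated fragments in ovary, 5 (0.161%) had a tubule level under 5% of the ovary level. Of 2684 genes with as many fragments in tubules, 243 (9.05%) had an ovary level under 5% of the tubule level. The 1st percentile of the level in the other tissue was 7.29% for ovary genes in tubules and 0.371% for tubule genes in ovary. With equal sums it was 5.57% and 0.485%. Within the 4-fold sets, the level in the other tissue had a median of 12.0% (quartiles 8.59 and 17.5) for the ovary set and 7.92% (quartiles 2.75 and 15.8) for the tubule set. The fold rule itself capped these levels, which reached at most 24.4% and 24.5%, so they restate the folds of the sets.

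**Figure D4:**
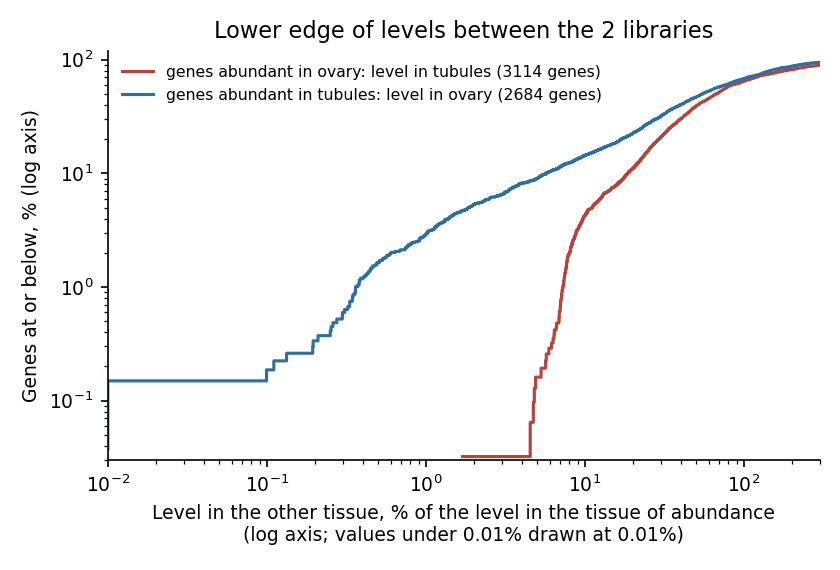
Share of genes (y axis, %, log scale) whose level in the other tissue lies at or below the percentage on the x axis (log scale), for the 3114 genes with at least 2000 estimated fragments in ovary (red, level in tubules) and the 2684 with at least 2000 in tubules (blue, level in ovary). The red curve has 5 genes under 5% and rises steeply above that level, while the blue curve has 243 genes under 5%.

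The few exceptions among ovary genes were mostly in assembled genes with several reference genes. With a limit of 500 fragments, 11 of 5800 ovary genes lay under 3% of the ovary level in tubules, and 10 of the 11 shared their assembled gene with another reference gene. Of the 5049 ovary genes alone in their assembled gene, 1 lay under 3%, against 206 of 4492 such genes in tubules. That gene (scaffold_00004, 4137077 to 4141314, minus strand, 7 exons) had 19.5 FPKM in ovary (12.8 to 26.2) and 0.0750 FPKM in tubules (0 to 0.322), from 1440 and 9 estimated fragments. It had 0.0532 FPKM in midgut and 0.818 FPKM in fat body.

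The same lower edge was seen outside the reference genes. Of 340 intergenic loci with at least 500 fragments in ovary, 0 lay under 3% of the ovary level in tubules, and the 1st percentile was 6.02%. Of 330 such loci in tubules, 24 lay under 3% of the tubule level in ovary, with a 1st percentile of 0.614%. Single isoforms were less uniform. Of 2355 isoforms with at least 2000 fragments in ovary, 46 (1.95%) lay under 3% in tubules, against 172 of 2126 (8.09%) the other way. Ovary RNA carried into the tubule library and transcription in the tubules themselves cannot be told apart with 1 library each. Subtracting 7.29% of the ovary level from the tubule level gave 1086 genes 4-fold higher in ovary and 1032 higher in tubules. That percentage is the 1st percentile given above, taken from these same values, and is not a measured carry-over. Genes below it lost their whole tubule level. Such a subtraction can only raise the ovary count.

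Isoform use was compared in 3003 genes with 2 or more isoforms and at least 5 FPKM in both tissues. A different isoform held at least 60% of the gene level in each tissue for 89 genes, 2.96% of those compared. The authors' bounds of both isoforms did not overlap between the tissues for 61 of the 89. The 89 genes were picked by isoform shares from the same values, so this count is no separate check of the changes. The most abundant isoform differed, at any share, in 686 genes. At least 10% of the gene level moved between isoforms in 1507 genes, 25% in 771 and 50% in 218. In the 89 genes, the main isoform of ovary had a median share of 70.9% in ovary and 14.1% in tubules. That of tubules had a median share of 74.7% in tubules and 19.7% in ovary.

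Most genes with such a change differed by under 4-fold in level, as did most compared genes. They numbered 72 of the 89 (80.9%), slightly below the 85.4% of all compared genes. Of the others, 15 were 4-fold higher in tubules and 2 in ovary. An assembled gene with another reference gene held 21 of the 89 (23.6%), against 15.4% of the compared genes. In 8 genes the spans of the main isoforms did not overlap at all.

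Most of the changed genes switched between isoforms with different start groups, the labels that tie together transcript models with a common start. The main isoforms had different start groups in 70 of the 89 genes (78.7%). This share has a high background, since 70.5% of the 6144 pairs of expressed isoforms in the compared genes also differed in start group. Summed by start group, the leading group held at least 60% in each tissue and differed in 97 of 2829 genes (3.43%). The leading starts lay a median of 4458 bases apart, with quartiles of 1180 and 11362 bases, and 75 were over 1000 bases apart. The ovary start lay upstream in 61 genes and the tubule start in 36. Starts are those of the transcript models and were not measured directly.

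The tubule isoform more often reached farther at the 3' end. Among the 89 genes the tubule main isoform ended farther out in 51, the ovary one in 24, and both at the same position in 14. Over the 3003 genes, 3' ends weighted by isoform level were compared, a measure chosen after seeing the data. They lay at least 50 bases farther out in tubules in 886 genes (29.5%) and in ovary in 427 (14.2%). At 500 bases or more the numbers were 336 and 96. Among 2542 genes alone in their assembled gene the shares were 27.9% and 12.8%. Annotated transcripts mostly end at the stop codon, and their share of the level moves this measure. With assembled isoforms only, 204 of 1364 genes (15.0%) ended farther out in tubules and 147 (10.8%) in ovary. The weighted 5' end lay at least 50 bases farther upstream in ovary in 760 genes and in tubules in 797, and with assembled isoforms only in 397 and 195.

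By the rule for isoforms, the genes with the largest difference in share were ASTEI05156 and ASTEI02024, both alone in their assembled gene. The annotated isoform of ASTEI05156 (scaffold_00028, 1873234 to 1885194, plus strand, 9 exons) made up 99.8% of the gene in ovary, at 21.1 FPKM (18.7 to 23.4), and 11.3% in tubules, at 5.45 FPKM (3.76 to 7.14). ANSTF.4801.2 (1882437 to 1885778, 4 exons) held 0.212% in ovary, at 0.0446 FPKM (0 to 0.171), and 88.7% in tubules, at 42.8 FPKM (37.9 to 47.6). The tubule isoform thus starts inside the span of the annotated one and ends past it. The gene as a whole stood at 21.1 FPKM in ovary and 48.2 FPKM in tubules.

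ASTEI02024 (scaffold_00007, plus strand) showed a switch between separate stretches of a long gene model. Its annotated transcript (3564889 to 3579405, 25 exons) was at 0.0863 FPKM in ovary and 0.0591 FPKM in tubules. ANSTF.1937.2 (3570227 to 3572898, 8 exons) held 98.6% in ovary, at 139 FPKM (125 to 152), and 11.4% in tubules, at 11.5 FPKM (8.17 to 14.9). ANSTF.1937.3 (3573483 to 3578393, 5 exons) held 0.941% in ovary, at 1.32 FPKM (0 to 2.70), and 70.8% in tubules, at 71.9 FPKM (63.5 to 80.3). ANSTF.1937.4 (3574812 to 3578393, 5 exons) rested on the same downstream stretch and held 17.8% in tubules. The ovary isoform and both tubule isoforms do not overlap. Whether they are isoforms of 1 gene or transcripts of separate units was not tested. The gene sums were 141 FPKM in ovary and 101 FPKM in tubules, so the gene level alone does not show the switch.

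**Figure D5:**
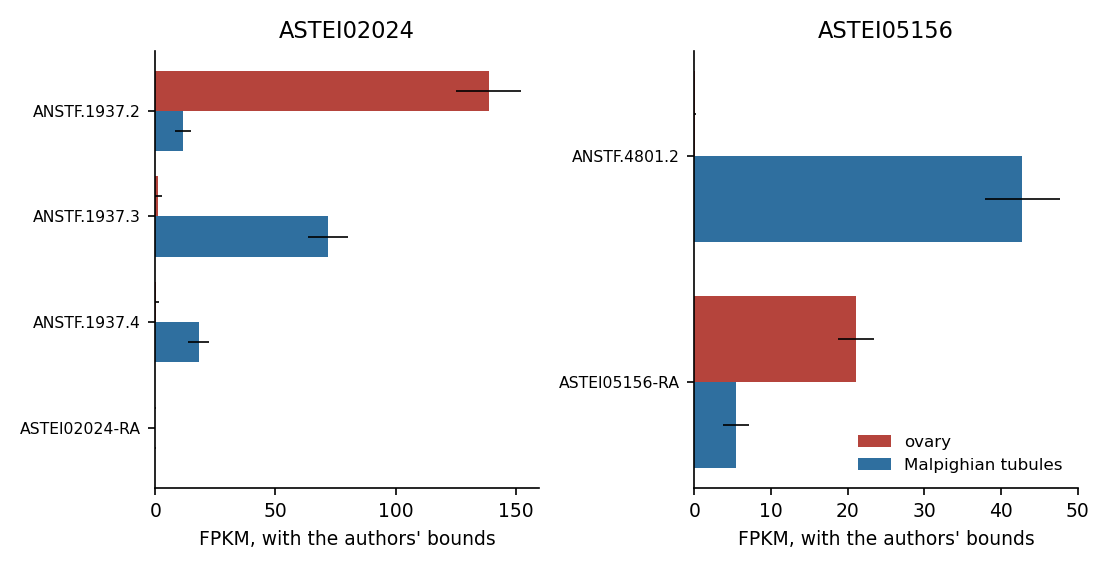
FPKM of each isoform (x axis, with the authors' lower and upper bounds as error bars) of ASTEI02024 and ASTEI05156 in ovary (red) and Malpighian tubules (blue). In each gene the isoform that leads in ovary, at 139 and 21.1 FPKM, is low in tubules, and the one that leads in tubules, at 71.9 and 42.8 FPKM, is near 0 in ovary.

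Assembled loci outside the reference genes showed the same difference in the size of folds. Of 1708 tested intergenic loci, 110 (6.44%) were 4-fold higher in ovary and 185 (10.8%) in tubules, with equal sums 245 (14.3%) and 201 (11.8%), and at an unchanged level 161 (9.43%) and 154 (9.02%). A fold of 16 was reached by 0 ovary loci and 31 tubule loci, with equal sums by 6 and 36, and at an unchanged level by 1 and 25. Single-exon loci made up 49.1% of the ovary set and 68.6% of the tubule set, beside 68.0% of all tested loci. For ovary the largest folds were those of ANSTF.4289 and ANSTF.1659. ANSTF.4289 (scaffold_00024, 1105212 to 1106150, plus strand, 2 exons) had 173 FPKM in ovary (145 to 200.3) and 10.4 FPKM in tubules (7.10 to 14.0), a fold of 15.2. ANSTF.1659 (scaffold_00006, 1502034 to 1504792, plus strand, 2 exons) had 36.7 FPKM in ovary (32.3 to 41.0) and 1.97 FPKM in tubules (1.28 to 2.66), a fold of 12.7.

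The intergenic loci with the largest folds in tubules were ANSTF.6104 and ANSTF.12066. ANSTF.6104 (scaffold_00041, 1510688 to 1511823, 1 exon, no strand given) had 203 FPKM in tubules (184 to 223) and 1.10 FPKM in ovary (0.533 to 1.68), a fold of 97.1. In midgut it had 1.97 FPKM and in fat body 2.66 FPKM. ANSTF.12066 (scaffold_18275, 2 to 598, plus strand) had 70.8 FPKM in tubules (47.4 to 94.2) and 0.1998 FPKM in ovary (0 to 1.16), a fold of 59.9. Its levels in midgut and fat body were 0.720 and 0.754 FPKM.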

How the data were processed

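RNA from 1 ovary library and 1 Malpighian tubule library was analysed, with levels in fat body and midgut given beside a few named genes. The submitters' processing notes name Cuffdiff, HISAT2, CASAVA 1.8 and StringTie 1.2.1, without settings or order. The authors deposited FPKM for 25785 transcripts, with lower and upper bounds and a status. The table named counts was deposited as a signal on a scaled axis: 98.6% of low ovary values and 99.2% of low tubule values were whole sums of 2 lane steps within 0.1%, and dividing by these steps gave estimated fragments. The deposited annotation gave transcript classes and coordinates.

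With Python 3.11.15 and pandas 2.3.3, FPKM were summed over annotated, junction-sharing, exon-overlapping and single-exon classes by reference gene. In tubules 9 transcripts had a failed estimate and 1 had too many fragments, and the 3 genes holding them were left out of 12340. An exact 0 can be a failed estimate and is written as listed at 0. No source said whether strand was kept, so genes overlapping on opposite strands cannot be separated. The scripts were tested on simulated data. With 1 library a tissue no test was made.

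Named genes were the 2 with the largest FPKM + 1 ratio in each direction among genes 4-fold different under both scalings, without an opposite-strand or intronic transcript. Beside these stand the 2 genes with the largest change in isoform share at 20 FPKM or more, with bounds that do not overlap, and the 2 intergenic loci a direction with the largest ratio. The genes in runs and the 1 ovary gene low in tubules were chosen after their values were seen. The comparison, its sets and its rules were chosen with earlier results of these data known. Equal sums means that each column was scaled to the same total with the added 1 kept; a version at an unchanged overall level divided the change equally, on the log scale, between both columns. Alternatives covered scaling, pseudocount, filters, thresholds, transcript classes, bounds and a subtraction of ovary signal.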

Additional observations from a re-analysis of the deposited data

Results flagged for a closer look

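Signal was present in transcript classes that the gene sums left out, at 1 FPKM and 20 estimated fragments or more in ovary or tubules. Transcripts antisense to reference genes numbered 210, of which 16 were 4-fold higher in ovary and 33 in tubules, 35 and 32 with equal sums, and 26 and 25 with equal sums at an unchanged overall level. The highest level in ovary was 473 FPKM and the highest in tubules 7855 FPKM, in different transcripts. Inside introns there were 54 transcripts, with 4 higher in ovary and 7 in tubules. Just past a gene end there were 233, with 7 higher in ovary and 25 in tubules, and 19 and 23 with equal sums. The repeat class held 157 transcripts, with 5 higher in ovary and 15 in tubules. These counts were 18 and 17 with equal sums, and 7 and 8 at an unchanged level. Of all tested reference genes, 8.13% were 4-fold higher in ovary and 12.6% in tubules with deposited FPKM, and 16.1% and 11.2% with equal sums. Whether any class differs from these shares was not tested. Under either equal-sum scaling, the ovary and tubule counts of the antisense and repeat classes lay within a few transcripts of each other. No order of the tissues is therefore read there.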

How the results depend on the processing

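No paired analysis was possible because each tissue had 1 library, and none could be left out. With equal sums 1333 genes and 245 intergenic loci were 4-fold higher in ovary, and the ovary share of 4-fold genes turned from 39.3% to 59.0%. That setting also lowered the weight of the added 1 and of thresholds. At an unchanged overall level 1066 ovary genes gave 56.6%, again the other direction. With the median ratio set to 1 the share was 30.9%. A pseudocount of 0.1 FPKM gave 1148 ovary genes (45.7%), and one of 5 FPKM gave 200 ovary and 684 tubule genes (22.6%). At 2-fold there were 2318 and 2194 genes (51.4%, the other direction), and at 8-fold 130 and 522 (19.9%). With annotated transcripts only the share was 45.2%. After subtraction of 7.29% of the ovary level, a value taken from these data, 1086 ovary genes gave 51.3%, also the other direction. That subtraction can only raise the ovary count. Genes on in 1 tissue only numbered 16 for ovary and 32 for tubules at 5 FPKM, 20 and 37 with off below 0.01 FPKM, and 21 for ovary among genes alone in their assembled gene. Annotated lengths alone had medians of 1559 and 1307 bases. Changed main isoforms numbered 332 at a share of 50%, 15 at 80%, 135 at 2 FPKM and 31 at 20 FPKM, and changed start groups made up 12.9% and 0.530% at those shares. With assembled isoforms only, 58.1% of shifted 3' ends reached farther out in tubules, against 67.5% with all isoforms. The cause of these changes was not tested. Of 28 alternatives for the 4 named genes 0 turned direction. These genes were chosen for the largest ratios among genes 4-fold different under both scalings, so a turn was unlikely beforehand. Each has 1 transcript, so the settings on transcript class only repeat its main value. Low genes were limited by depth, since a gene had to reach 20 fragments.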
